A study of Mus musculus with 64 samples.

Results

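The insulin signalling genes described here are 10 genes that carry the signal from the insulin receptor into the cell or damp it: Insr, Irs1, Irs2, Pik3ca, Pik3r1, Akt1, Akt2, Foxo1, Socs3 and Grb14. They were chosen by name, with earlier results of these data known, and 31 of the 45037 probe sets tested are annotated to 1 of them alone. Each gene was read from the probe set with the highest mean, so 10 genes were followed of the 18193 that have a probe set of their own. RNA came from whole tissue, in which fewer cells of a type and less RNA per cell cannot be told apart.

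The mice were 24-week-old males of an F2 cross between TALLYHO/JngJ and C57BL/6J mice, in which each mouse carries its own mixture of the alleles of a diabetic strain and a lean strain. All were fed chow with 4% fat and killed with CO2, and overtly diabetic mice had been excluded. From the tails of the plasma triglyceride distribution 8 mice were taken as the high and 8 as the low triglyceride group, and liver, pancreas, muscle and adipose of each of the 16 mice were hybridised to an Affymetrix array, giving 64 arrays. The paper reports that the high group also had heavier inguinal, subscapular and summed fat pads, and higher cholesterol at some earlier ages. Body weight did not differ. The groups thus differed in fat mass as well as in triglyceride, and the part of fat mass in the differences below was not tested. Muscle was soleus pooled with gastrocnemius, and adipose was a pool of 5 fat pads that included the subscapular pad, so the adipose values are means over several depots.

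The array labelled Liver, low triglyceride replicate 7 was left out. Its hepatocyte markers averaged 6.64 on the log2 scale, against 15.8 to 16.0 on the other liver arrays, and its brown adipocyte markers averaged 13.6, so 63 arrays were used. Hepatocyte, acinar, muscle fibre and adipocyte markers lay between 13.2 and 16.3 on every used array of their own tissue. Some arrays also carried markers of another tissue. In adipose the muscle fibre markers ran from 3.95 to 13.6, and the hepatocyte markers ran from 3.18 to 10.002 in the high group and from 3.10 to 3.88 in the low group. In muscle the hepatocyte markers reached 8.90 in the high group and 5.27 in the low group. The adipocyte marker Adipoq ran from 5.97 to 11.3 in muscle. In liver the muscle fibre markers reached 8.49 in the high group and 8.17 in the low group.

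Insulin binding switches on the kinase of its receptor, Insr, which phosphorylates the docking proteins Irs1 and Irs2. These recruit phosphatidylinositol 3-kinase, made of a catalytic subunit such as that encoded by Pik3ca and a regulatory subunit such as that encoded by Pik3r1, and the lipid it makes brings Akt1 and Akt2 to the membrane. Akt drives glucose uptake and storage in muscle and fat and keeps Foxo1, a transcription factor for genes of glucose production, out of the nucleus, while Socs3, induced by cytokines, and the adaptor Grb14 act as brakes at the receptor.

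Promoter sequence was held for 9 of the 10 genes, with 14 promoters in all, and Insr had no entry. The 250 bases before the start site were searched on both strands for the forkhead motifs TGTTTAC and TGTTTTG, for the E box CACGTG, which reads the same on both strands, and for the STAT motif TTCNNNGAA. The last 2 motifs and the genes shown were picked after values had been seen. The promoters below are those of the 2 docking proteins, which share motifs, of Socs3, the gene that varied most between mice in liver, and of Grb14, the gene with the largest difference between groups in adipose. Capitals mark the motif matches, and the sequences are from RefSeq, build GRCm38.p6, read 5′ to 3′ on the strand of the gene.
Irs1, chr1:82291440-82291689, minus strand: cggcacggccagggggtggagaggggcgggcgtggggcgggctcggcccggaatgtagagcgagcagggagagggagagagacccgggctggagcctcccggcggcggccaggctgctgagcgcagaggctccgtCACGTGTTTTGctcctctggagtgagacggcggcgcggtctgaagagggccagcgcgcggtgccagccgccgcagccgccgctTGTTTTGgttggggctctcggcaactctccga
Irs2, chr8:11008930-11009179, minus strand: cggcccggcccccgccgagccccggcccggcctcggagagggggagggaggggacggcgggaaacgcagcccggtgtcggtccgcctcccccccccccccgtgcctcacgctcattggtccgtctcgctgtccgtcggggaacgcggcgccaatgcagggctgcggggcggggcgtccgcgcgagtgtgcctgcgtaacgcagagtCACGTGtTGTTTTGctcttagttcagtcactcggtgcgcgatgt
Socs3, chr11:117969367-117969616, minus strand: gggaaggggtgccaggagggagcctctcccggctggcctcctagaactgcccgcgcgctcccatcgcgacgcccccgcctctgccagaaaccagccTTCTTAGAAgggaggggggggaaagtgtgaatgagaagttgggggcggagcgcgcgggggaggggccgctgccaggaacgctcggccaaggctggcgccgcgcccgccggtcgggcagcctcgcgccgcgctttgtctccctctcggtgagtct
Grb14, chr2:65022767-65023016, minus strand: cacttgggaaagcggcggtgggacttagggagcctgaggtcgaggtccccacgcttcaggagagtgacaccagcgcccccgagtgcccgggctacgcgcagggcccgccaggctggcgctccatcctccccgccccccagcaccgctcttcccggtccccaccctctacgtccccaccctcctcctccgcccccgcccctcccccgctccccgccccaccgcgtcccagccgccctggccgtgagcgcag

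In Irs1 and in Irs2 an E box and a TGTTTTG lay side by side. In Irs1 the E box began 115 bases before the start and shared its last bases with the forkhead motif at 111. The same forkhead motif lay again at 32. In Irs2 the E box began at 44 and TGTTTTG at 37, with 1 base between them. Among all 32851 promoters, 5.56% held TGTTTTG and 6.02% held CACGTG in this window. The share that held both side by side was not counted. The STAT motif began 154 bases before the start of Socs3 and was also found at 1 start of Akt2, and 7.02% of all promoters held it. TGTTTAC was found at 1 start of Akt1, against 3.17% of all promoters, and the Grb14 window held none of the 4 motifs.

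Socs3 and Grb14 had the same order of tissues, and each of the other genes had an order of its own. The order is given here by the percentile of a gene among the probe sets of the same array, since the lowest value differed between tissues. It would differ if each tissue had been processed separately, which the sources used here do not state. The share of probe sets that averaged 4 or more was 43.5% in adipose, 32.9% in liver, 35.6% in muscle and 22.8% in pancreas, and a percentile moves with that share. Insr stood highest in liver, at a mean percentile of 96.0, followed by muscle at 94.5, pancreas at 92.9 and adipose at 92.4. Its muscle and pancreas ranges did not overlap, whereas liver overlapped muscle and pancreas overlapped adipose. The level of Insr was 9.98 ± 0.31 in liver (mean log2 ± SD, n = 15), 7.09 ± 0.26 in pancreas, 9.67 ± 0.12 in muscle and 9.61 ± 0.39 in adipose (n = 16 each).

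**Figure D1:**
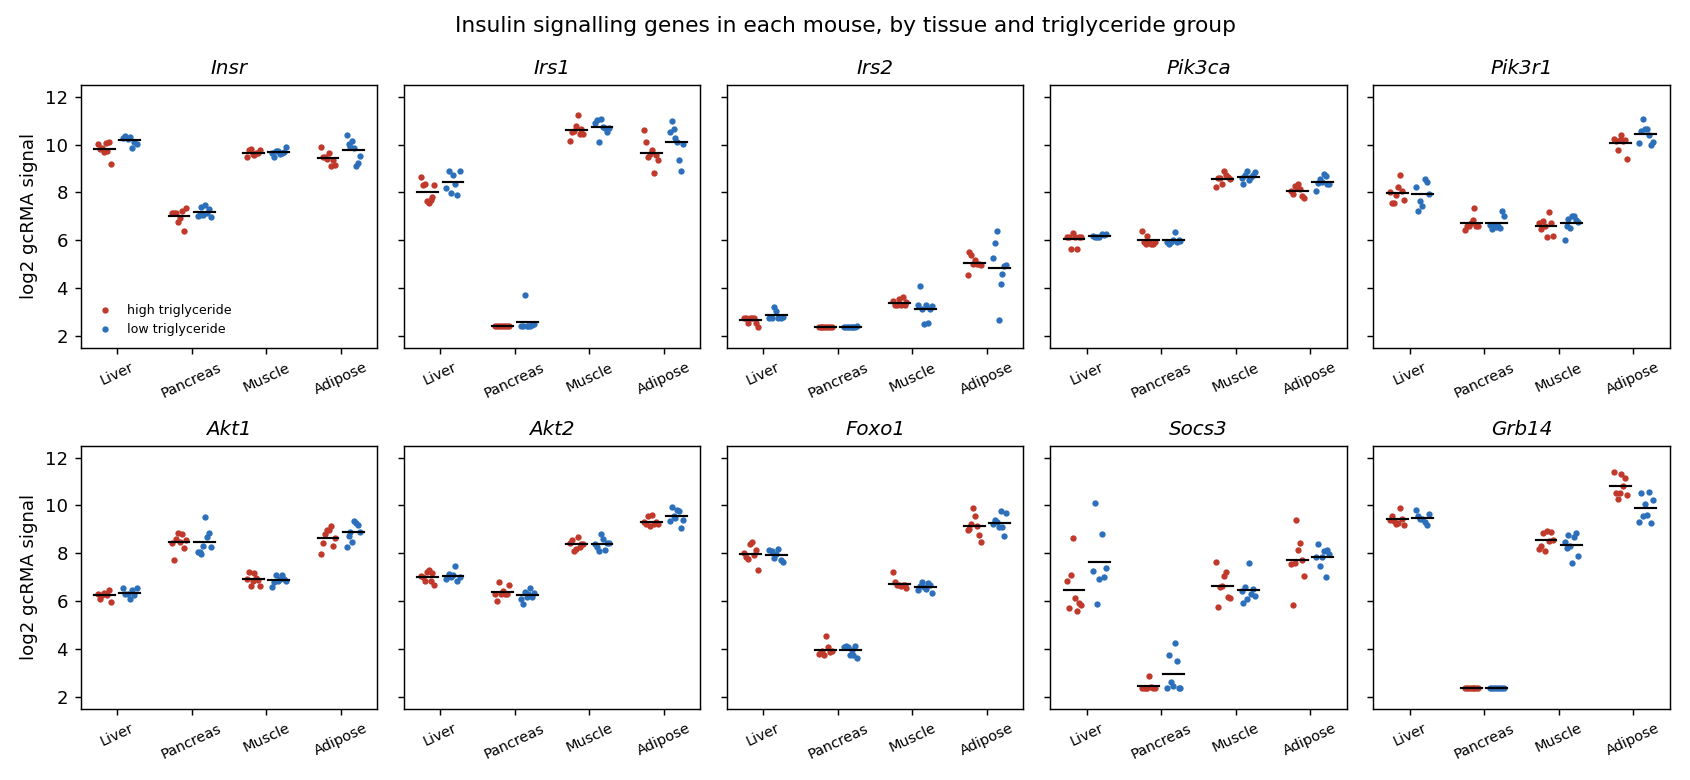
Log2 gcRMA signal (vertical axis) of the 10 genes in liver, pancreas, muscle and adipose of each mouse, with high triglyceride mice in red, low triglyceride mice in blue and a bar at each group mean. Grb14, Irs1, Irs2 and Socs3 lie near the lowest value in pancreas, Socs3 spreads from 5.60 to 10.1 in liver, and Grb14 sits higher in the high than in the low group in adipose.

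The docking proteins differed in where they were measured. Irs1, the main docking protein of muscle and fat, stood highest in muscle at percentile 96.8, then in adipose at 93.3 and in liver at 90.6, each overlapping its neighbour, and at 10.7 ± 0.31 on the log2 scale in muscle. In pancreas 13 of the 16 arrays were within 0.1 of the lowest value, and the pancreas range lay below that of liver. Irs2, known for its part in liver and beta cells, had 1 probe set of its own on the array, and that probe set averaged 4 or more only in adipose, at 4.97 ± 0.80. It averaged 2.76 in liver and 3.27 in muscle and lay within 0.1 of the lowest value on all 16 pancreas arrays, so its level outside adipose was not measured above background by this probe set.

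The subunits of phosphatidylinositol 3-kinase had different orders. Pik3ca, the catalytic subunit, stood at percentile 90.7 in muscle, 88.2 in pancreas, 85.1 in adipose and 79.4 in liver, and the liver range lay below that of adipose. Pik3r1, the regulatory subunit, was highest in adipose at 94.7 and lowest in muscle at 79.4, with pancreas at 91.4 and liver at 89.5 between them, and the muscle range lay below that of liver. The level of Pik3r1 was 10.3 ± 0.39 in adipose and 6.65 ± 0.33 in muscle, with 7.95 in liver and 6.72 in pancreas. Another Pik3r1 probe set averaged 9.34 in adipose, 8.42 in liver, 5.93 in muscle and 4.23 in pancreas. The order of tissues given here is thus that of the probe set used.

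Of the kinases, Akt1, the more widely used form, stood at percentile 96.6 in pancreas, and this range did not overlap that of adipose, the next tissue. On the log2 scale the order turned, with 8.46 ± 0.44 in pancreas and 8.76 ± 0.39 in adipose. By percentile it stood at 88.2 in adipose, 81.0 in muscle and 80.6 in liver, and neighbours among these 3 tissues overlapped. Akt2, the form tied most closely to glucose uptake, was highest in adipose at 91.7 and lowest in liver at 84.9, with pancreas and muscle at 89.7 and 89.6. Foxo1 was highest in adipose at 90.6 and in liver at 89.6, which overlapped, and lay at 79.5 in muscle, below the whole liver range. In pancreas Foxo1 averaged 3.95 ± 0.22 on the log2 scale by the probe set used, whereas other Foxo1 probe sets averaged 6.10 and 4.88 there.

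Of the inhibitors, Grb14 stood at percentile 94.8 in both liver and adipose and at 89.9 in muscle, and it was at the lowest value on all 16 pancreas arrays. Socs3 stood at 84.0 in liver, 81.8 in adipose and 78.8 in muscle, with overlapping ranges, and 10 of the 16 pancreas arrays were at the lowest value.

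Mice of 1 tissue differed most in Socs3. In liver it ran from 5.60 to 10.1, a 22.7-fold range, and its SD of 1.31 exceeded that of 99.3% of the liver probe sets that averaged 4 or more. Its SD was also the largest of the 10 genes in muscle, at 0.56, and in pancreas, at 0.58, where most arrays were at the lowest value. In adipose Irs2 had the largest SD, at 0.80, followed by Socs3 at 0.77 and Grb14 at 0.66. Without low replicate 4, an array with acinar markers, Irs2 had an SD of 0.54, below Socs3 at 0.80, Grb14 at 0.68 and Irs1 at 0.65. Among members that averaged 4 or more in a tissue, Insr in muscle had the smallest SD, 0.12, and 13.1% of the muscle probe sets that averaged 4 or more had a smaller one.

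The liver probe sets most like Socs3 over the 15 mice were those of Smad3, a mediator of TGF-beta signals (Pearson r = 0.844), Hspb1, a small heat shock protein (0.843), Foxq1, a forkhead factor (0.825), the nuclear RNA Malat1 (0.805) and Phlda1 (0.803). In muscle they were Atic (0.797), Ncaph2 (0.787), Zfand2a (0.768), Alas1 (0.766) and Simc1 (0.761). For Irs2 in adipose they were Evi5 (0.897), Kdm5a (0.891), Smc6 (0.889), Abhd15 (0.887) and Efnb1 (0.886), and without low replicate 4 these were 0.747, 0.751, 0.727, 0.872 and 0.748. In pancreas, where Socs3 was near the lowest value, Ncapd3, Ssr1, B3galt4, Ccnh and Trim37 came first, with r from 0.787 to 0.826. Spearman's rho was lower for all of these genes but Phlda1, Zfand2a and Simc1, and fell to 0.588 for Smad3 and 0.339 for Ssr1. These were the 5 highest of all genes that averaged 4 or more and are given as a description.

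The comparison of high with low triglyceride mice asked whether the genes of insulin action differ between mice at the extremes of plasma triglyceride. In no tissue did any of the 10 genes pass an adjusted p of 0.05 (limma, Benjamini-Hochberg over 45037 probe sets), and neither did any other probe set, so the background was 0% in each tissue. At p under 0.05 before adjustment, adipose had 3 of the 10 genes, liver 2, and muscle and pancreas 0, against 4.62%, 5.36%, 4.10% and 2.23% of all probe sets. The 3 in adipose were 2 lower (3.57% of all probe sets) and 1 higher (1.05%), and the 2 in liver were lower (2.95%). An exact permutation test over the mice also made 0 calls among the 10 genes after adjustment, and before adjustment the same 5 differences had an exact p under 0.05. Of all probe sets 4.61% had one in adipose, 5.78% in liver, 4.37% in muscle and 2.46% in pancreas. No gene had groups that failed to overlap, against 0.0222% of all probe sets in adipose, 0.0377% in liver, 0.0311% in muscle and 0.00444% in pancreas.

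**Figure D2:**
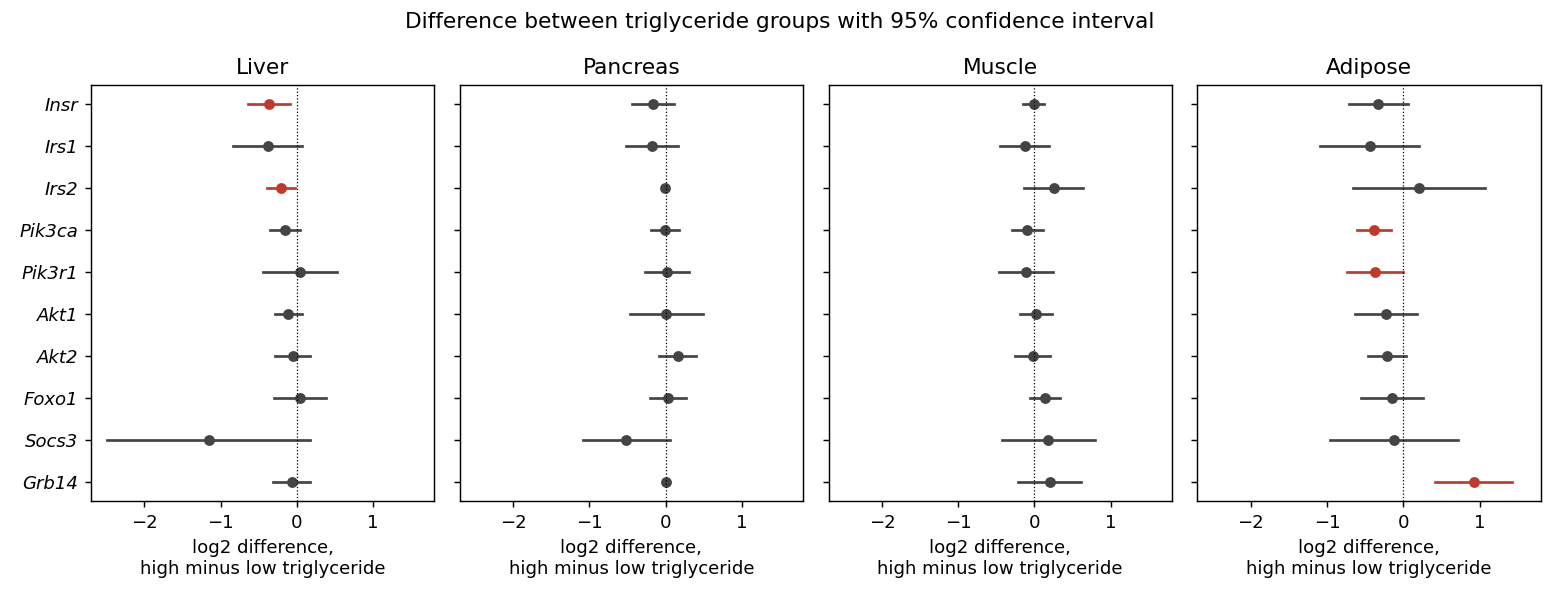
Difference in log2 signal, high minus low triglyceride (horizontal axis), with its 95% confidence interval for each gene in each tissue, red where the unadjusted p is under 0.05. In adipose Grb14 stands alone on the right at 0.92, and 8 of the 10 genes lie left of 0 there and in liver.

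Grb14 in adipose was the member with the lowest p of all. Its log2 values ran from 10.3 to 11.4 with a median of 10.7 in the high group, and from 9.28 to 10.6 with a median of 9.82 in the low group. All 8 high mice lay above the low median and all 8 low mice below the high median, 4 high mice lay above every low mouse, and 6 low mice lay below every high mouse. The difference of 0.92 ± 0.23 (SE, 95% interval 0.42 to 1.43) is a 1.90-fold higher signal in the high group, with an adjusted p of 0.781 by limma. The exact permutation test gave p = 0.00311 and an adjusted p of 0.878.

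The difference of Grb14 in adipose was also fitted with the markers of some other cells as a covariate. It was 0.94 with the muscle fibre markers as a covariate, 0.93 with the macrophage markers, 0.95 with the brown adipocyte markers and 1.11 with the hepatocyte markers, all chosen after the data were seen. The other marker lists, among them those of adipocytes, B and T cells and endothelium, were not fitted in adipose, so their part was not tested. Without the 4 adipose arrays on which hepatocyte or acinar markers averaged over 6 it was 1.16, and leaving out any 1 array gave 0.84 to 1.02. The other Grb14 probe set averaged 2.29 in adipose, near the lowest value, so this result rests on 1 probe set.

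The groups of Grb14 overlapped widely in liver and in muscle. In liver it ran from 9.19 to 9.88 with a median of 9.37 in the high group and from 9.19 to 9.81 with a median of 9.45 in the low group, a difference of -0.07 (95% interval -0.31 to 0.17). In muscle it ran from 8.10 to 8.93 with a median of 8.54 in the high group and from 7.59 to 8.86 with a median of 8.38 in the low group, a difference of 0.20 (-0.21 to 0.61).

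Whether the difference varied with tissue was tested by an F test of tissue by triglyceride group with the mouse as a random block. It passed for 187 probe sets, 0.415% of all (9.62% before adjustment at p under 0.05), and for 1 of the 10 genes, Grb14, with an adjusted p of 0.0441. This test gives each gene 1 spread for all tissues, and Grb14 had an SD near 0 in pancreas and of 0.66 in adipose. The call was lost without pancreas (adjusted p = 0.196), with a weight for each tissue (0.158), with both (0.338), and with the liver array that had been left out (0.0678). Over the mice themselves, the adipose minus liver difference of Grb14 was 1.39 ± 0.47 in the high group and 0.49 ± 0.61 in the low group (SD, n = 8 and 7), and adipose minus muscle was 2.26 ± 0.50 and 1.54 ± 0.74 (n = 8 each). These values are a description, since Grb14 had been picked for its adipose difference.

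Among the other 9 genes Pik3ca had the lowest p of the F test, 0.0383, with an adjusted p of 0.475. In a single fit over the 4 tissues, which also pools their spread, Grb14 (adjusted p = 0.000497) and Pik3ca (0.0147) passed in adipose, where 2.75% of all probe sets passed in that fit. No member passed in the other tissues, where 0.435% passed in liver, 0.151% in muscle and 0.0844% in pancreas.

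Pik3ca in adipose ran from 7.76 to 8.37 with a median of 8.11 in the high group, and from 8.08 to 8.77 with a median of 8.42 in the low group. All 8 high mice lay below the low median, and 6 low mice lay above every high mouse. The difference was -0.38 ± 0.10 (SE), a 1.30-fold lower signal in the high group, with exact permutation p = 0.00342 and adjusted p = 0.864 by limma. By this probe set the difference of Pik3ca was -0.15 in liver, -0.09 in muscle and -0.01 in pancreas, each with an interval that held 0.

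The 6 probe sets of Pik3ca did not move as 1, and 5 of them averaged 4 or more in some tissue. In adipose 1453134_at and 1423144_at gave -0.43 and -0.25, whereas 1429434_at and 1429435_x_at gave 0.01 and -0.01 and correlated with the probe set used at -0.418 and -0.411. In liver 1453134_at gave -0.55 ± 0.14 and 1429435_x_at gave -0.41 ± 0.14 (SE, limma, adjusted p = 0.802 for both), beside -0.15 for the probe set used. In muscle 1453134_at gave -0.57. The mean of all 6 in adipose was -0.17.

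**Figure D3:**
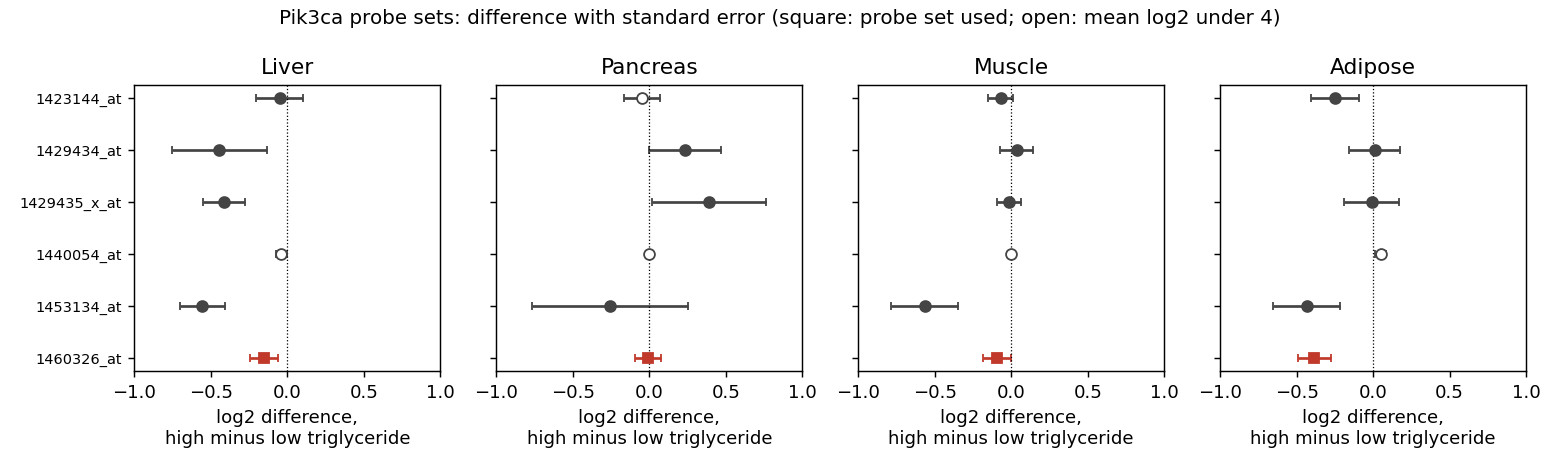
Difference in log2 signal, high minus low triglyceride (horizontal axis), with its standard error for each of the 6 Pik3ca probe sets in each tissue; the square is the probe set used and open symbols average under 4. In adipose the probe sets fall into those near 0 and those between -0.25 and -0.43.

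Pik3r1 in adipose ran from 9.42 to 10.4 with a median of 10.2 in the high group, and from 9.98 to 11.1 with a median of 10.5 in the low group. All 8 high mice lay below the low median, and the groups overlapped. The difference was -0.37 ± 0.17 (SE), 1.29-fold lower, with exact permutation p = 0.0494 and adjusted p = 0.9 by limma. In liver, pancreas and muscle the difference of Pik3r1 was 0.04, 0.02 and -0.11, each smaller than its SE. The other 3 Pik3r1 probe sets in adipose did not share 1 sign. That averaging 8.60 gave -0.52 ± 0.20 and correlated with the one used at 0.859, whereas those averaging 9.34 and 5.29 gave 0.32 ± 0.31 and 0.15 ± 0.38 and correlated with it at 0.0874 and 0.0986.

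Insr in liver ran from 9.17 to 10.1 with a median of 9.84 in the high group, and from 9.87 to 10.3 with a median of 10.2 in the low group. All 8 high mice lay below the low median, and all 7 low mice lay above the high median. The difference was -0.36 ± 0.13 (SE), 1.29-fold lower, with exact permutation p = 0.00948 and adjusted p = 0.802 by limma, and it was -0.27 without high replicate 8, the lowest mouse. The array left out would have made it -0.15. It was -0.40 without the 2 liver arrays on which muscle fibre markers averaged over 6. In adipose Insr differed by -0.33 ± 0.18, with an interval from -0.72 to 0.06, and in muscle by -0.01 ± 0.06.

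Of the docking proteins, Irs1 had the sign of the receptor in both tissues without passing, and Irs2 in liver only. Irs1 differed by -0.38 ± 0.21 in liver, where the high group had a median of 8.06 and the low group of 8.35, and by -0.44 ± 0.30 in adipose, where the medians were 9.60 and 10.2. With the stress markers described below as a covariate the liver difference of Irs1 was -0.17. Without the 2 liver arrays with muscle fibre markers over 6 it was -0.34. Irs2 in liver, with exact permutation p = 0.0392 and adjusted p = 0.802 by limma, lay between 2.37 and 3.22 on every array and is not counted as measured there. In adipose Irs2 had nearly the same median in both groups, 5.00 and 4.96, but ran from 4.53 to 5.50 in the high and from 2.68 to 6.40 in the low group, a 13.2-fold range. Its SD was 3.77 times as large in the low group, and whether the spreads differed was not tested. The 2.68 is low replicate 4, the adipose array whose acinar markers averaged 6.37. Without it the low group ran from 4.19 to 6.40, the range over both groups was 4.62-fold, the SD was 2.52 times as large in the low group, and the difference was -0.10 in place of 0.21. This array was left out after the data were seen, and the part of the acinar markers was not tested.

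The kinases and Foxo1 showed small differences. Akt2 in adipose differed by -0.22 ± 0.11 (interval -0.46 to 0.03) and Akt1 by -0.23 ± 0.19, and in the other tissues the probe sets used for Akt1 and Akt2 stayed within 0.16 of 0. Another Akt1 probe set, averaging 5.63 in muscle, gave -0.24 ± 0.09 there (limma, adjusted p = 0.846). Foxo1 differed by -0.15 ± 0.19 in adipose, by 0.13 ± 0.09 in muscle and by 0.04 ± 0.16 in liver. The interval for Foxo1 in liver ran from -0.30 to 0.38, by the probe set used. Another Foxo1 probe set, averaging 6.60 in liver, gave 0.30 ± 0.09 there (limma, adjusted p = 0.802).

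Socs3 in liver had the widest interval. It ran from 5.60 to 8.65 with a median of 6.03 in the high group, and from 5.86 to 10.1 with a median of 7.25 in the low group, and 7 of 8 high mice lay below the low median. The difference was -1.15 ± 0.62 (SE), with an interval from -2.49 to 0.18, exact permutation p = 0.0922 and adjusted p = 0.802 by limma. Without low replicate 2 it was -0.74, and without the 2 liver arrays with muscle fibre markers over 6 it was -1.27. Stress markers (Fos, Jun, Egr1, Hspa1b, Dusp1) were higher in the high than in the low group in liver, at 6.94 against 6.20, and in muscle, at 8.98 against 8.01, and with these as a covariate the liver difference was -1.64. Another Socs3 probe set, averaging 5.55 in liver and correlating with the one used at 0.954, gave -0.72 ± 0.62 there (limma, adjusted p = 0.802). A further one averaged 2.75 in liver and gave -0.19. By the probe set used, Socs3 differed by 0.18 ± 0.28 in muscle and by -0.12 ± 0.39 in adipose. The part of the stress markers in these values was not tested beyond that covariate.

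Of the 10 genes 8 had a negative difference in liver and 8 in adipose, against 58.7% and 46.1% of all probe sets, and 5 in muscle and 5 in pancreas, against 57.3% and 37.9%. Among members that averaged 4 or more, 7 of 9 were negative in liver, 8 of 10 in adipose, 5 of 9 in muscle and 2 of 5 in pancreas. The shares include probe sets near the lowest value, and none was taken over those averaging 4 or more. This limit also holds where such shares stand beside the gene lists below. The median over the 10 genes was -0.13 in liver and -0.22 in adipose, beside 0 over all probe sets in both. In adipose Grb14 and Irs2 were the exceptions, and in liver Pik3r1 and Foxo1.

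Insr and Irs1 rose and fell together between mice in adipose. Over 16 mice Pearson's r was 0.865 and Spearman's rho 0.921 (permutation test, p = 2e-05 and 1e-05, adjusted p = 0.0036 and 0.0018 over 180 pairs of members), and it was the only pair of the 180 past the threshold by both measures. By Pearson's r no other pair passed, and 15 had a p under 0.05 before adjustment. It held within the high group (r = 0.905) and the low group (0.824), each of 8 mice, and without the 2 mice farthest from the median of Insr (0.921). Over 15 mice in liver the same pair had r = 0.235.

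**Figure D4:**
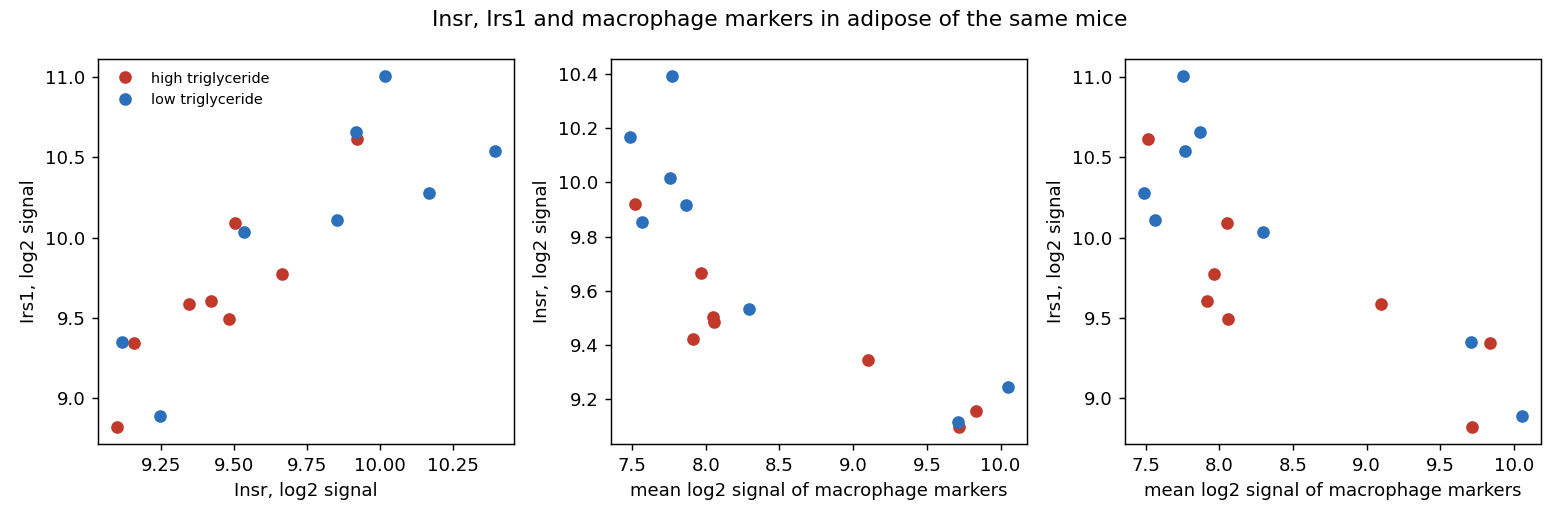
Adipose of 16 mice, high triglyceride in red and low in blue: log2 signal of Irs1 against Insr, and of each against the mean log2 signal of 5 macrophage markers. Insr and Irs1 lie along 1 line in both groups, and the 5 mice with macrophage markers of 9.10 or more have the lowest Insr values.

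Macrophage markers moved with this pair. The 16 adipose arrays fell on either side of a gap in the mean of Cd68, Adgre1, Lyz2, Cd14 and Itgam, all 5 of which averaged 4 or more, with 11 mice between 7.49 and 8.29 and 5 mice between 9.10 and 10.1. Insr lay between 9.10 and 9.35 in the 5 mice and between 9.42 and 10.4 in the 11, and Irs1 between 8.82 and 9.59 and between 9.49 and 11.01. Both sides held both groups, with 3 high and 2 low mice above the gap. Within the 11 mice Insr and Irs1 had r = 0.731 and rho = 0.809 (permutation test, p = 0.0114 and 0.00375, adjusted p = 0.0342 and 0.0112 over 3 relations), and r was 0.715 without the 2 farthest mice. Insr and the macrophage markers had r = -0.679 and rho = -0.736 there (permutation p = 0.0229 and 0.013, adjusted p = 0.0344 and 0.0195), with r = -0.846 without the 2 farthest mice. The third relation, Irs1 with the macrophage markers, did not pass by Pearson's r (r = -0.474, rho = -0.655, permutation p = 0.14 and 0.0344, adjusted p = 0.14 and 0.0344). Over all 16 mice, the r of Insr and Irs1 was 0.583 with the level of the macrophage markers taken out of both and 0.712 with that of the stress markers, the lowest of the 11 marker lists taken out. The split at this gap was chosen after the data were seen. The pair had been picked from 180 pairs, and the macrophage list from 440 relations of a member with a marker list, in the same mice. The adjustment over 3 relations does not count that choice, so the values within the 11 mice are a description.

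The macrophage markers themselves differed little between triglyceride groups, at 8.52 in the high and 8.31 in the low group. With them as a covariate the adipose difference of Insr was -0.26 (limma, adjusted p = 0.772) and that of Irs1 -0.33 (adjusted p = 0.904).

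Akt2 and Foxo1 were the next pair, in liver, with r = 0.799 and rho = 0.825 over 15 mice (permutation test, p = 0.00057 and 0.00025, adjusted p = 0.0513 and 0.0225 over the 180 pairs). With group means removed r was 0.818 and the adjusted p 0.0234. It was 0.938 within the high and 0.62 within the low group, and 0.772 without the 2 farthest mice. In adipose Pik3ca went with Pik3r1 (r = 0.689, permutation p = 0.0029, adjusted p = 0.174), Akt1 (0.655, p = 0.00663, adjusted p = 0.239) and Akt2 (0.656, p = 0.00625, adjusted p = 0.239), none past the threshold.

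Mice did not carry a member's level from tissue to tissue in a way that passed adjustment. Of 60 combinations of a gene and 2 tissues 0 passed, and 7 had a p under 0.05 before adjustment. Among these were Insr between liver and adipose (r = 0.673, rho = 0.654, n = 15, permutation p = 0.00454 and 0.00983, adjusted p = 0.217 and 0.295) and Akt1 between pancreas and adipose (r = 0.637, rho = 0.709, n = 16, permutation p = 0.00722 and 0.00304, adjusted p = 0.217 and 0.182).

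Around the 10 genes, 84 of 91 other genes of the pathway, its targets and the cytokine arm that induces Socs3 had a probe set of their own. None passed an adjusted p of 0.05 in any tissue by limma. Before adjustment p was under 0.05 for 13 in adipose, 4 in liver, 6 in muscle and 7 in pancreas, or 15.5%, 4.76%, 7.14% and 8.33% of the 84, beside the shares of all probe sets given above, and in adipose 11 of the 13 were lower in the high group.

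Of the genes regulated by insulin 16 of 17 had a negative difference in adipose, with a median of -0.43, beside 46.1% of all probe sets, and 4 of the 17 had a p under 0.05 before adjustment. Ppargc1a, a coactivator of mitochondrial genes, averaged 4.94 ± 0.36 in the high and 6.02 ± 0.52 in the low group, a difference of -1.07 ± 0.22 (SE, limma, adjusted p = 0.624). Hk2, the hexokinase of insulin-sensitive tissues, differed by -0.77 ± 0.24 in adipose (adjusted p = 0.87) and by -0.66 ± 0.14 in muscle (adjusted p = 0.584). All 4 muscle arrays with hepatocyte markers over 6 were in the high group, and their part in the muscle values was not tested for Hk2. With muscle fibre, brown adipocyte, macrophage or hepatocyte markers as a covariate in adipose, 16 of 17 were again negative and the median ran from -0.43 to -0.37. With the hepatocyte markers, which averaged 6.01 in the high and 3.42 in the low group, Hk2 was at -0.39 and 7 in place of 13 of the 84 genes had an unadjusted p under 0.05.

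The genes with the lowest p of their list follow, none past adjustment by limma, with adjusted p of 0.584 or more. Among receptors and ligands, Igf1r, the receptor of insulin-like growth factor, differed by -0.68 ± 0.19 in adipose and -0.56 ± 0.23 in pancreas, and Igf2, a fetal growth factor, by 0.23 ± 0.12 in muscle. Among substrates and adaptors, Crkl differed by -0.45 ± 0.22 in liver and -0.16 ± 0.08 in muscle, Sh2b1, an adaptor of the receptor, by -0.09 ± 0.04 in pancreas, and Grb2, which links receptors to Ras, by 0.20 ± 0.15 in adipose. Among PI3K genes and phosphatases, Inppl1, a lipid phosphatase, differed by -0.27 ± 0.15 in liver and -0.27 ± 0.13 in adipose, its relative Inpp5d by 0.07 ± 0.03 in pancreas, and Pik3r2, a regulatory subunit, by 0.12 ± 0.05 in muscle. Among Akt and its mTOR arm, Tsc2, a brake on mTOR, differed by -0.46 ± 0.16 in adipose, Pdpk1, the kinase that activates Akt, by -0.20 ± 0.06 in muscle, and Tsc1 by -0.46 ± 0.17 in pancreas. Among other Akt substrates, Bad, a cell death protein, differed by 0.67 ± 0.17 in pancreas and by 0.13 ± 0.10 in liver, Foxo4 by -0.45 ± 0.18 in adipose and Tbc1d4, a brake on glucose transporter traffic, by -0.11 ± 0.07 in muscle. Sesn1, of the genes regulated by insulin, differed by 0.68 ± 0.36 in pancreas. In the cytokine arm, Stat3, which switches on Socs3, differed by 0.35 ± 0.08 in muscle, Il6st, the shared receptor subunit of that arm, by -0.27 ± 0.08 in adipose, Hp, the acute phase protein haptoglobin, by -0.15 ± 0.06 in liver, and Jak2 by -0.11 ± 0.06 in pancreas. Among inhibitors of the receptor 12 of 12 had a negative difference in liver, with a median of -0.19, beside 58.7% of all probe sets, and none had a p under 0.05 before adjustment. Grb7, the relative of Grb14 with the lowest p of that list in liver, differed by -0.32 ± 0.17, and Grb10, another relative, by -0.14 ± 0.11 in adipose. The other genes with the lowest p of a list averaged under 4 and are not counted as measured there: Igf1r (-0.03 ± 0.04), Mlst8 (0.13 ± 0.06) and Hk2 (-0.12 ± 0.05) in liver, Grb7 (0.08 ± 0.06) in pancreas and Trib3 (-0.10 ± 0.07) in muscle.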

How the data were processed

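Values of an Affymetrix mouse genome expression array were used as deposited by the authors, as log2 signal after gcRMA, whose version is not given in the sources used here. The lowest value differed between tissues, so tests were run within a tissue. All 64 sample columns were mapped from their labels, and 0 were left unmapped. Of 45101 probe sets 64 controls were left out, and 34945 of the 45037 kept had 1 gene symbol, 932 several and 9160 none in the platform annotation. A member's value is that of its probe set with the highest mean among those annotated to it alone. High and low triglyceride mice were compared with limma 3.58.1 (lmFit, eBayes) in R 4.3.3, with Benjamini-Hochberg adjustment over 45037 probe sets, and with an exact permutation test over the mice. Correlations used 100000 resamples. Tissue by triglyceride group was an F test with the mouse as a random block (duplicateCorrelation, statmod 1.5.0). A mean log2 of 4 or more is called measured, and values within 0.1 of the lowest value of the tissue are called lowest. Some values above 4 were exactly the same on several arrays of a tissue. These were 6.13 for Pik3ca in liver, 5.94 for Pik3ca and 6.62 for Pik3r1 in pancreas, and 5.00 for Irs2 in adipose. Whether such repeated values follow the level in each mouse was not tested. The scripts were tested on simulated data. Mice are separate animals, and array number limits the precision.

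Members and lists were chosen with earlier results of these data known. Genes named were the members, the gene with the lowest p of each pathway list in each tissue, and the 5 genes most correlated with the member of largest SD in each tissue. Promoters were searched for the motifs named, of which CACGTG and TTCNNNGAA were added later. Protein sequences were not used here, and neither was a table of traits and genotypes, which names no mouse number. Alternatives were normalization, the filter on low values, eBayes settings, array weights, the replicate block, 1 fit over tissues, the mean of a gene's probe sets, the left-out array, each replicate left out, and marker covariates added later.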

Additional observations from a re-analysis of the deposited data

Results flagged for a closer look

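Of 79 groups of arrays tested, 12 held 1 mouse that stood apart from the other mice of its group, and chance gives about 1 in 20. Of these, 4 had a range under 0.5 on the log2 scale, and 9 were in pancreas.

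In liver, Insr of high triglyceride replicate 8 was 9.17 and the next mouse 9.71. In muscle, Foxo1 of high replicate 1 was 7.22 against 6.78, and Socs3 of low replicate 5 was 7.60 against 6.58. In pancreas, Pik3r1 of high replicate 6 was 7.36 against 6.86, Foxo1 of high replicate 5 was 4.52 against 4.07, and Pik3ca of low replicate 5 was 6.36 against 6.02. Also in pancreas, Socs3 of high replicate 5 was 2.87 against 2.39, and Irs1 of low replicate 3 was 3.71 against 2.50.

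The remaining pancreas values were at the lowest value of the tissue, where the ranges were tiny: Irs1 of high replicate 3 at 2.41, Irs2 of high replicate 1 at 2.38, Irs2 of low replicate 8 at 2.41, and Grb14 of low replicate 8 at 2.35.

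In limma's F test of tissue by triglyceride group Grb14 had an adjusted p of 0.0441. The adjusted p was 0.0678 to 0.338 in the 4 alternatives named in the report.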

How the results depend on the processing

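None of the 40 differences of a member in a tissue passed an adjusted p of 0.05 under any within-tissue alternative (limma). A single fit over the 4 tissues, which pools the spread over tissues, called 1237 probe sets in adipose, among them 2 members, Grb14 and Pik3ca, and 196 in liver, 68 in muscle and 38 in pancreas, none a member. The tissue by triglyceride test called 34 probe sets with the left-out liver array and 116 of the 16613 that averaged 4 or more. Without pancreas it called 25, and with a weight for each tissue as well 27. The adjusted p of Grb14 was then 0.0678, 0.0286, 0.196 and 0.338, and 0.158 with the weights alone. With group means removed 2 pairs of members passed in place of 1. Leaving out 1 array gave 0 to 1 called probe sets in adipose, 0 to 0 in liver, 0 to 2 in muscle and 0 to 1 in pancreas.

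High and low mice with the same replicate number are different animals. Their deviations correlated from -0.263 to 0.361 in adipose, -0.163 to 0.214 in liver, 0.0285 to 0.112 in muscle and -0.295 to 0.193 in pancreas. The correlation was above 0.1 in 4 of 8 pairs in adipose, 2 of 7 in liver, 1 of 8 in muscle and 1 of 8 in pancreas. Whether equal numbers mark arrays handled together cannot be told from these values and was not tested. With the replicate number as a block 4 probe sets passed in adipose, none a member, and no other call changed.

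Signs turned only for differences of at most 0.21 in size, and the cause was not tested. In liver, Pik3r1 was -0.0768 with the left-out array and -0.25 with the stress covariate, Foxo1 -0.0268 and -0.15, Akt1 0.0005 and Akt2 0.0177 as the mean of all probe sets, and Akt2 0.0006 with array weights. In pancreas, array weights gave 0.0014 for Irs2, -0.19 for Akt1 and -0.0163 for Foxo1, quantile normalization -0.0459 for Pik3r1 and -0.0437 for Akt1, and the mean of all probe sets 0.0517 for Pik3ca and -0.0221 for Grb14. In muscle, array weights gave 0.0016 for Insr and -0.0164 for Akt1, leaving out arrays with markers of another tissue 0.0275 for Insr, 0.0295 for Pik3ca and -0.0412 for Akt1, the mean of all probe sets -0.0535 for Akt1, and the stress covariate 0.0455 for Irs1, 0.14 for Akt2 and -0.0297 for Socs3. In adipose, Irs2 was -0.24 without those arrays and Socs3 0.009 as the mean of all probe sets.

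Leaving out 1 array turned some signs too. In liver the ranges were -0.0956 to 0.0122 for Akt2, -0.0324 to 0.14 for Foxo1 and -0.0742 to 0.15 for Pik3r1. In pancreas they were -0.0615 to 0.16 for Akt1, -0.0481 to 0.062 for Foxo1, -0.0086 to 0.0001 for Irs2, -0.0642 to 0.0414 for Pik3ca and -0.0745 to 0.088 for Pik3r1. In muscle they were -0.0254 to 0.0632 for Akt1, -0.0692 to 0.0315 for Akt2 and -0.0421 to 0.0215 for Insr, and in adipose -0.10 to 0.43 for Irs2 and -0.36 to 0.15 for Socs3.

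Quantile normalization of all arrays together keeps the ranks within an array, so it was no test of the order of tissues by percentile. Of the alternatives, marker covariates, arrays left out for markers, Irs2 in adipose without low replicate 4, and the tissue test without pancreas or with weights were chosen after seeing the data. Values near the lowest signal, in pancreas for Irs1, Irs2, Socs3 and Grb14, carry no order.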
